A study of Mus musculus with 41 samples.

Results

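A set of 9 genes of the Hedgehog pathway was followed through the differentiation of mouse embryonic stem cells towards ventral spinal cord progenitors: the transcription factors Gli1, Gli2 and Gli3, the receptor Ptch1, the secreted-ligand antagonist Hhip, the signal transducer Smo, the co-receptors Boc and Cdon, and Arhgap36. They were taken by gene symbol as 9 of the 24410 symbols in the count table, and all 9 were among the 15204 genes that passed a filter on low counts. Their lowest count in any of the 41 libraries was 121, for Gli1. Levels are given in CPM, counts scaled to libraries of a common size, and a gene was called where its adjusted p (edgeR's quasi-likelihood test, Benjamini-Hochberg adjustment over all tested genes of a comparison) was under 0.05.

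All cells were R1-iCas9, an R1 embryonic stem cell line with a doxycycline-inducible Cas9, and all had Cas9 induced 1 day before guides were transfected. A pool of 5 crRNAs was aimed at Eed, Ezh2, Brd8 or Nr6a1, and a non-targeting guide (NT) was the control, so each targeted group is a pool of transfected cells and no clone, and the extent of editing was not measured in these counts. Eed and Ezh2 belong to PRC2, the complex that places a repressive methyl mark on histone H3. Brd8 belongs to NuA4/TIP60, an acetyltransferase complex, while Nr6a1 is a nuclear receptor without a known ligand. Every group received bFGF, then 5 µM CHIR99021 from day 2, 100 nM retinoic acid with 10 nM SAG (an agonist of Smo) from day 3, and 10 nM SAG without retinoic acid from day 5, and RNA was taken at days 7, 9 and 11. Of the 15 groups 11 had 3 libraries, and the other 4, Brd8 at day 9 and Nr6a1 at days 7, 9 and 11, had 2.

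Hedgehog ligands bind Ptch1 and relieve its inhibition of Smo, which then lets the Gli proteins switch from repressors to activators in the primary cilium. Gli1 is itself a target and acts only as an activator, Gli2 is the main activator and Gli3 the main repressor of the neural tube, while Ptch1 and Hhip are targets that feed back to dampen the signal. Boc and Cdon bind the ligand together with Ptch1, and Arhgap36 inhibits protein kinase A, which otherwise restrains the Gli proteins. In the ventral spinal cord the signal raises Olig2, Nkx2-2 and the floor plate gene Foxa2 and holds down Pax6, Pax3 and Dbx1. SAG acts on Smo itself, below the ligand and Ptch1.

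Libraries held 8581282 to 38240227 estimated counts, so that 3 counts in 1 library, the floor used for a count of 0, stood for 0.0785 to 0.35 CPM, which covers counting error only. All 9 markers of neural progenitors (Sox1, Sox2, Nes and others) averaged over 1 CPM in every group. The labels do not say whether libraries of a group came from separate cultures, so p-values measure the spread between these libraries, which may be technical. The targeted transcript was not called lower in any of the 12 comparisons of guides with NT, and in Ezh2 cells at day 11 Ezh2 rose (log2 fold change 0.37 ± 0.09 SE, adjusted p = 0.00736). At an unadjusted p under 0.05 Nr6a1 and Brd8 were each lower in their own cells at days 7 and 11, and Eed was higher at day 11. The largest of these falls was that of Nr6a1 at day 7, from 175 ± 5.81 CPM in NT to 123 ± 12.8 CPM (SD). Its log2 fold change was -0.51 ± 0.13 SE (edgeR, adjusted p = 0.121), with no overlap. Counts over whole genes do not show small insertions or deletions. A pair of libraries stood apart: replicate 3 of NT and replicate 3 of Eed at day 11 correlated with the other libraries of their own group at no more than 0.939 and 0.945, and calls that end without them are named below. Each comparison with NT of a day shares the same NT libraries, so results of different guides at 1 day are not independent.

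By edgeR, in NT cells 6 members fell between days 7 and 9 and 1 rose, where 13.3% of tested genes fell and 14.5% rose. Between days 9 and 11, 2 members fell and 0 rose (12.9% and 10.6% of tested genes). At an unadjusted p under 0.05 Gli2 and Gli3 were lower as well and Cdon was higher. Over the whole interval from day 7 to day 11, 7 members fell and 0 rose (23.3% and 21.9% of tested genes), with Boc and Cdon the 2 not called. DESeq2 called 6, 3 and 7 members in these 3 intervals.

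**Figure D1:**
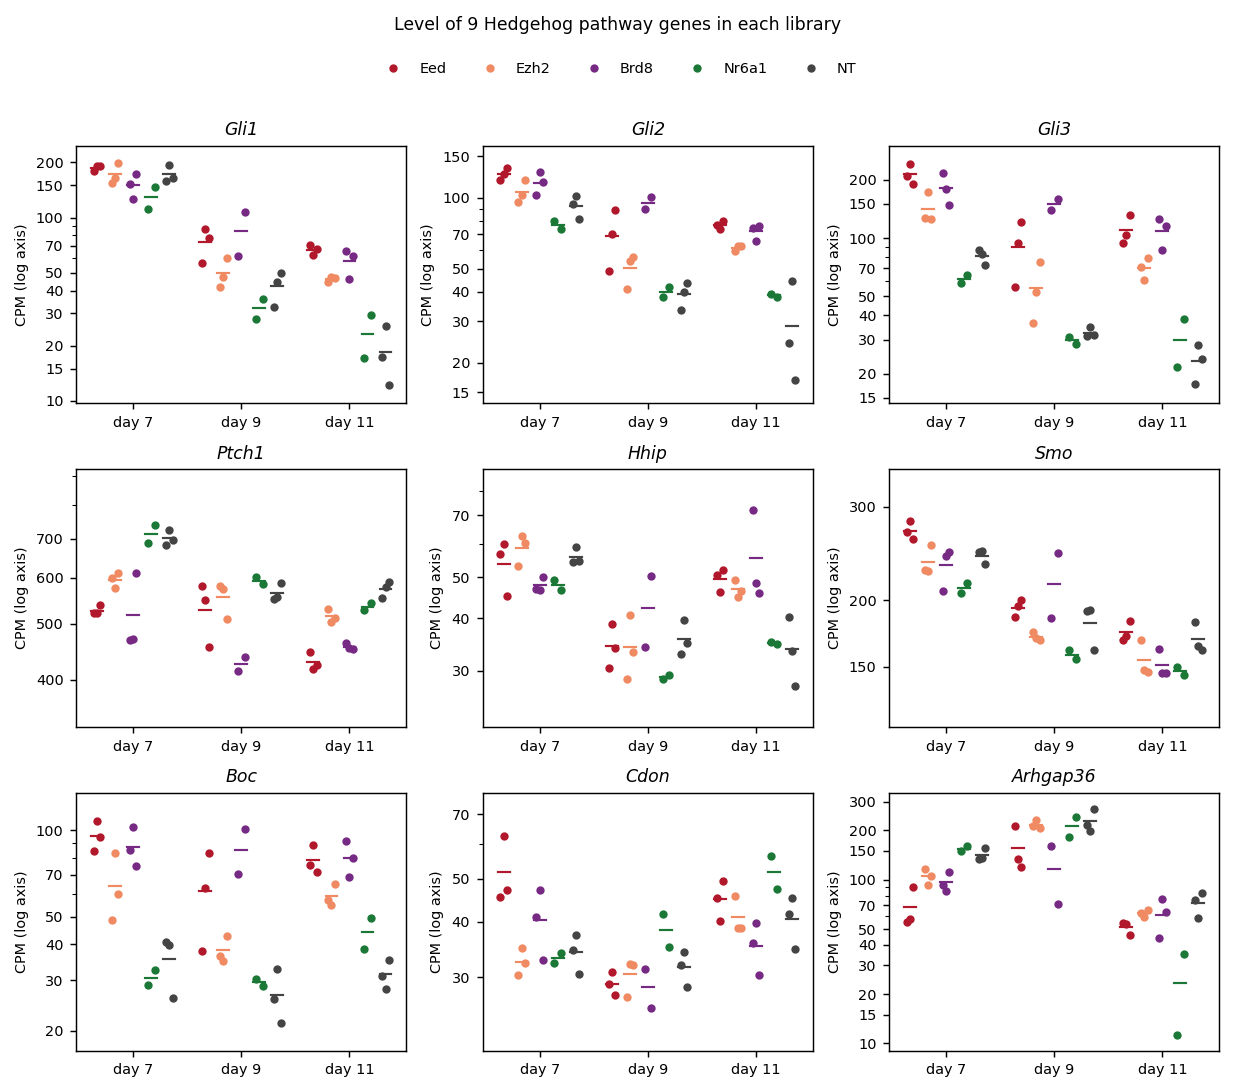
Level of each of the 9 genes in each library on a log axis of CPM, by day and, from left to right within a day, Eed, Ezh2, Brd8, Nr6a1 and NT cells; points are libraries and lines group means. At day 11 the NT libraries of Gli1 lie at 12.2 to 25.7 CPM, below every Eed, Ezh2 and Brd8 library.

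Gli1, the target often used as a readout of the pathway (chromosome 10, 127329882 to 127341974, minus strand, GRCm38), measured 158, 194 and 165 CPM in the NT libraries of day 7, 32.7, 44.4 and 49.6 CPM at day 9, and 17.4, 25.7 and 12.2 CPM at day 11. No library of a later day reached one of an earlier day. The fold changes were 4.07-fold down from day 7 to day 9 (adjusted p = 8.09e-10) and a further 2.29-fold down to day 11 (adjusted p = 7.33e-05). Ptch1, another target, did not follow that course: its mean was 702 ± 21.0 CPM at day 7, 565 ± 19.9 at day 9 and 574 ± 18.5 at day 11 (SD, n = 3 each). Its level fell 1.24-fold between days 7 and 9 (adjusted p = 0.00154) and did not pass between days 9 and 11 (log2 fold change 0.02, 95% interval -0.13 to 0.17).

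Gli2 and Gli3 fell in NT cells between days 7 and 9. Gli2 averaged 92.3 ± 10.1, 39.0 ± 5.00 and 28.5 ± 14.2 CPM at days 7, 9 and 11, and Gli3 averaged 80.7 ± 7.26, 32.6 ± 1.85 and 23.2 ± 5.30 CPM (SD, n = 3 each). Between days 7 and 9 they fell 2.37-fold and 2.48-fold (adjusted p = 1.8e-06 and 2e-05), and between days 9 and 11 neither passed (adjusted p = 0.0868 and 0.131). Without NT replicate 2 of day 11, however, the log2 change of Gli2 between days 9 and 11 was -0.91 and was called (adjusted p = 0.000193). Without the low-count filter both were called there, with log2 changes of -0.44 for Gli2 and -0.48 for Gli3 (adjusted p = 0.00234 and 0.000317). That setting added calls in many other comparisons as well. For Gli3 in Ezh2 cells at day 7, not called with the filter, it gave an adjusted p of 1.2e-11. The calls without the filter are therefore no further support for a fall after day 9. Hhip fell 1.56-fold and Smo 1.34-fold between days 7 and 9 (adjusted p = 0.000932 and 0.000154), and between days 9 and 11 neither passed (log2 fold change -0.08 and -0.10, adjusted p = 0.749 and 0.432). Arhgap36 alone of the members rose between days 7 and 9, with 216, 198 and 270.0 CPM at day 9 against 134, 136 and 155 CPM at day 7, and then fell to 75.7, 58.4 and 83 CPM at day 11. The rise was 1.61-fold (adjusted p = 0.0344) and the fall 3.15-fold (adjusted p = 4.96e-06). The rise was not called by DESeq2, nor by edgeR without any 1 of the day 7 libraries or without replicate 1 or 3 of day 9 (adjusted p up to 0.160). Markers of neurons moved over these days as well, with a sum over 9 genes of 3462 to 3619 CPM at day 7, 4854 to 5581 CPM at day 9 and 4699 to 5098 CPM at day 11, none of the 9 being at 0. Their part in the course of Arhgap36 was not tested, and in bulk libraries fewer cells of a type and less RNA per cell cannot be told apart.

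Against NT of the same day, Eed cells had 3 members up and 2 down at day 7, where 2.9% of tested genes rose and 5.76% fell. At day 9 they had 4 up and 0 down (2.99% and 2.16% of tested genes; at an unadjusted p under 0.05 1 further member, Arhgap36, was lower), and at day 11 5 up and 1 down (13.3% and 10.6%). In Ezh2 cells 0 members were called by edgeR at day 7, where 0.151% of tested genes were called in either direction, against 3 at an unadjusted p under 0.05 and 2 by DESeq2. At day 9 0 members were called in Ezh2 cells (0% of tested genes), against 3 at an unadjusted p under 0.05 and 0 by DESeq2. At day 11 Ezh2 cells had 5 up and 0 down (5.22% and 2.7%; Ptch1 was lower at an unadjusted p under 0.05, and DESeq2 called 5). Brd8 cells had 2 up and 1 down at day 7 (1.3% and 3.45%), 4 up and 2 down at day 9 (7.72% and 7.81%) and 5 up and 1 down at day 11 (10.3% and 7.48%). The 5 members that rose at day 11 were Gli1, Gli2, Gli3, Hhip and Boc in each of Eed, Ezh2 and Brd8 cells, and edgeR called Smo in 0 of the 12 comparisons with NT (DESeq2 called it in Brd8 cells at day 9, and 4 comparisons had an unadjusted p under 0.05).

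**Figure D2:**
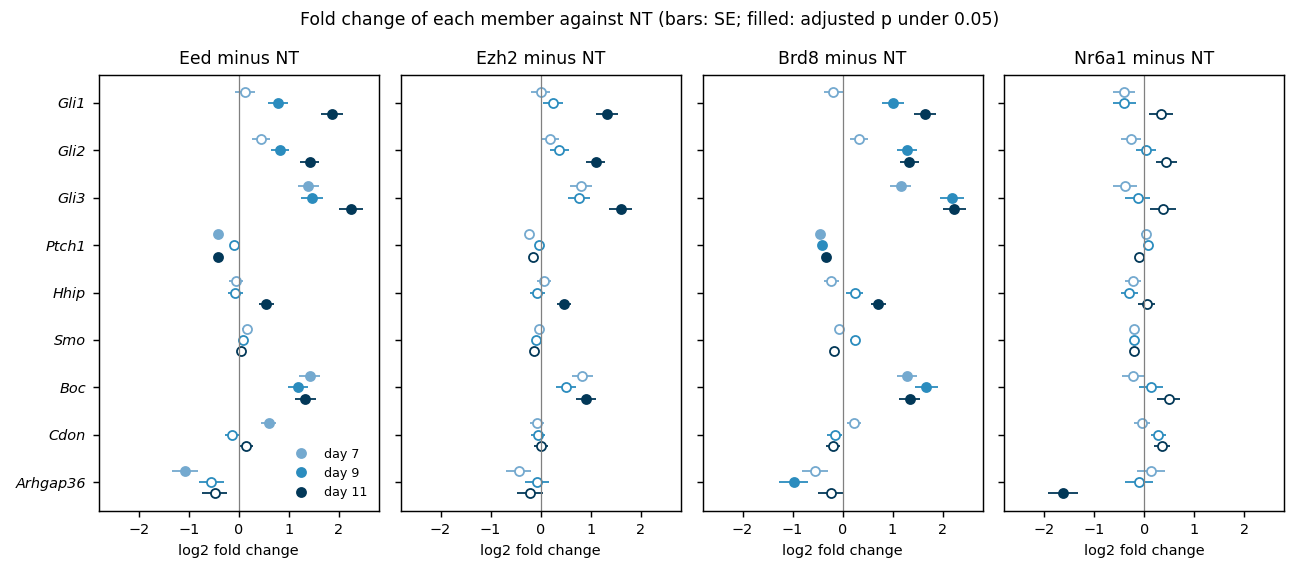
Log2 fold change of each member against NT of the same day, with 1 panel for each of Eed, Ezh2, Brd8 and Nr6a1 and 3 points per gene for days 7, 9 and 11; bars are SE, and filled points passed an adjusted p of 0.05. Gli3 and Boc lie to the right of 0 at all 3 days in the Eed, Ezh2 and Brd8 panels, in the Ezh2 panel with filled points at day 11 only. Gli1 has filled points in the Eed and Brd8 panels at days 9 and 11 but not at day 7.

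Gli3, the repressor (chromosome 13, 15463235 to 15730026, plus strand), had the largest rise of the 9 at day 11 in each of Eed, Ezh2 and Brd8 cells. At day 11 it measured 94.9, 104 and 132 CPM in Eed, 70.6, 60.9 and 78.6 CPM in Ezh2 and 126, 87.3 and 115 CPM in Brd8 libraries, against 17.7, 28.2 and 23.8 CPM in NT. The lowest of these 9 libraries, at 60.9 CPM, lay above the highest NT library, at 28.2 CPM. The rises were 4.76-fold in Eed (log2 2.25 ± 0.24 SE, adjusted p = 4.12e-09), 3.03-fold in Ezh2 (1.60 ± 0.23, adjusted p = 1.42e-05) and 4.72-fold in Brd8 cells (2.24 ± 0.24, adjusted p = 7.58e-09). At day 7 Gli3 already stood at 208, 239.9 and 190.5 CPM in Eed and at 216, 178 and 149 CPM in Brd8 libraries, against 86.8, 82.8 and 72.7 CPM in NT. These were rises of 2.63-fold in Eed (adjusted p = 4.99e-05) and 2.24-fold in Brd8 cells (adjusted p = 0.00114), with no overlap of either group with NT. Ezh2 libraries of day 7, at 127, 173 and 126 CPM, also lay above all 3 NT libraries, but the difference did not pass (log2 0.81 ± 0.22, adjusted p = 0.0981). DESeq2 called it (log2 0.82, adjusted p = 0.0359). At day 9 the level was 149 ± 13.2 CPM in Brd8 cells (SD, n = 2) and 90.4 ± 32.8 CPM in Eed cells (n = 3) against 32.6 ± 1.85 CPM in NT cells (n = 3), a rise of 4.58-fold in Brd8 and 2.75-fold in Eed (adjusted p = 1.4e-07 and 0.000164). Ezh2 libraries of day 9 ran from 36.4 to 75.5 CPM, above the highest NT library at 34.7 CPM, and Gli3 was not called there.

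Gli2, the main activator (chromosome 1, 118834132 to 119053619, minus strand), measured 76.5, 73.6 and 79.4 CPM in Eed, 59.6, 62.3 and 62.2 CPM in Ezh2 and 74.3, 65.7 and 76.3 CPM in Brd8 libraries of day 11, against 24.3, 44.4 and 16.9 CPM in NT. The NT libraries were the most spread of the 4 groups and did not overlap with the others. The rises were 2.68-fold in Eed, 2.15-fold in Ezh2 and 2.52-fold in Brd8 cells (adjusted p = 4.71e-07, 0.000135 and 2.09e-06). At day 7 Gli2 was called in none of them, with log2 differences of 0.45 ± 0.18 in Eed, 0.20 ± 0.18 in Ezh2 and 0.33 ± 0.18 in Brd8 cells (SE, adjusted p = 0.123, 0.742 and 0.333). At day 9 it rose 2.44-fold in Brd8 cells (adjusted p = 2.14e-05) and 1.77-fold in Eed cells (adjusted p = 0.00643), and the Eed call was lost without Eed replicate 3 or NT replicate 1 (adjusted p up to 0.150).

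Gli1 was not called at day 7 and rose at day 11. At day 7 its libraries ran from 179 to 192 CPM in Eed, from 154 to 198 CPM in Ezh2 and from 127 to 173 CPM in Brd8 cells, against 158 to 194 CPM in NT, and every one of these groups overlapped with NT. The 95% intervals of the log2 difference at day 7 were -0.26 to 0.50 in Eed, -0.38 to 0.38 in Ezh2 and -0.57 to 0.19 in Brd8 cells. At day 11 Gli1 measured 70.6, 62.9 and 67.1 CPM in Eed, 44.7, 47.6 and 46.6 CPM in Ezh2 and 65.5, 46.4 and 62.0 CPM in Brd8 libraries, against 17.4, 25.7 and 12.2 CPM in NT. Each of these 9 libraries exceeded all NT libraries, and the rises were 3.62-fold, 2.51-fold and 3.13-fold for Eed, Ezh2 and Brd8 in that order (adjusted p = 3.8e-08, 7.26e-05 and 6.46e-07). In every genotype all libraries of day 11 still lay below all libraries of day 7, in Eed cells with means of 66.9 ± 3.89 CPM at day 11 and 187 ± 6.79 CPM at day 7 (SD, n = 3 each). At day 9 the rises were 1.73-fold in Eed (adjusted p = 0.0164) and 2.01-fold in Brd8 cells (adjusted p = 0.00128). The Eed call at day 9 ended without Eed replicate 2, Eed replicate 3 or NT replicate 1, and the Brd8 call without Brd8 replicate 2 (adjusted p = 0.233).

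The difference between the fold changes at days 11 and 7 was tested in 1 model with NT at both days. For Eed it was called for 2 of the 9 members (6.32% of tested genes in either direction), for Ezh2 for 1 (1.41%), for Brd8 for 4 (4.55%) and for Nr6a1 for 0 (0.112%; 5 members at an unadjusted p under 0.05 and 1 by DESeq2). Gli1 had the largest in each of the first 3, with log2 differences of 1.73 ± 0.29 in Eed, 1.33 ± 0.29 in Ezh2 and 1.83 ± 0.29 in Brd8 cells (SE, adjusted p = 0.00013, 0.0114 and 9.34e-05). Gli2 followed in Eed (0.98 ± 0.26, adjusted p = 0.0162) and Brd8 cells (1.01 ± 0.26, adjusted p = 0.0164), and Gli3 and Hhip in Brd8 cells (1.08 ± 0.32 and 0.93 ± 0.21, adjusted p = 0.0391 and 0.00571). Boc, by contrast, had differences of -0.09 to 0.08 in the same 3 genotypes, all with 95% intervals that hold 0. Without the 2 libraries of low agreement the calls of Gli2 in Eed and Brd8 cells, Gli1 in Ezh2 cells and Gli3 in Brd8 cells ended (adjusted p = 0.116, 0.0735, 0.0557 and 0.0642). These 4 calls also ended without NT replicate 3 of day 11 alone, and those of Gli2 and Gli3 without NT replicate 1 of day 11. The call of Gli2 in Brd8 cells further ended without Brd8 replicate 1 of day 7, and that of Gli3 without replicate 2 or 3 of Brd8 at day 7, replicate 1 or 3 of Brd8 at day 11 or replicate 1 or 2 of NT at day 7. With only the groups compared in the fit, the calls of Gli2 ended in Eed (adjusted p = 0.0548) and Brd8 cells (adjusted p = 0.0538), and Gli3 was called in Eed cells (adjusted p = 0.0197). The differences of Gli1 in Eed and Brd8 cells and of Hhip in Brd8 cells were called in every alternative run.

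Promoter sequence is shown for the Gli genes that rose together and for Arhgap36, which was called lower than NT in 3 comparisons. RefSeq promoter entries on GRCm38.p6 matched 7 of the 9 members in 8 windows of 250 bases before the annotated start, and Gli1 and Boc had none. Capitals mark CpG dinucleotides, which are dense in the CpG islands that PRC2 is known to occupy.
Gli2 (chr1:119053620-119053869, minus strand): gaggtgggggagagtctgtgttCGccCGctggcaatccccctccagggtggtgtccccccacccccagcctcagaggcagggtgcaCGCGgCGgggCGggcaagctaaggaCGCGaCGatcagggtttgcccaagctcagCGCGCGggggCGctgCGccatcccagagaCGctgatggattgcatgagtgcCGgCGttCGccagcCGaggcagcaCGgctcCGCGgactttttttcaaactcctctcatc
Gli3 (chr13:15463473-15463722, plus strand): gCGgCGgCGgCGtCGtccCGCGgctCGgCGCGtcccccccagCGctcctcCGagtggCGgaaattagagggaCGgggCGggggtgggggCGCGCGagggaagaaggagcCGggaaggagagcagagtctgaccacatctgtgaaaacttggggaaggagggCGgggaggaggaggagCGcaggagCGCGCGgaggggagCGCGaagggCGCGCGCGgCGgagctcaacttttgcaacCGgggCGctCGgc
Arhgap36 (chrX:49463695-49463944, plus strand): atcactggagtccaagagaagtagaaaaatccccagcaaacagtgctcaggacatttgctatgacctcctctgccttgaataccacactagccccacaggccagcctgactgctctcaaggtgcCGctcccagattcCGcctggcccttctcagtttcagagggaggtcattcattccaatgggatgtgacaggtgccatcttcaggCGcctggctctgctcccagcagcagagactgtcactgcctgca
The Gli3 window held 34 CpG and the Gli2 window 22, while the Arhgap36 window held 3 and that of its second start 6. Over 32851 promoter windows of the same length the median was 6, and 3.53% of them held as many as Gli3 and 14.8% as many as Gli2. Ptch1 held 41 CpG, Hhip 28, Smo 15 and Cdon 1. Ptch1 thus had the most of the 7 members with a window, and a relation of CpG number to the changes of the members was not tested. The Gli binding letters GACCACCCA occurred on either strand in 0 of the 8 windows (0.225% of all windows), and the GC box letters GGGCGGG, which overlap 1 CpG, in 4 of them, those of Gli2, Gli3, Ptch1 and Hhip (23.4% of all windows). The windows of Gli3, Ptch1, Cdon and the second Arhgap36 start lie inside the gene body of GENCODE M21, and other starts were not searched.

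Ptch1, the receptor and a feedback target (chromosome 13, 63508328 to 63573598, minus strand), was called lower in Eed and Brd8 cells and not in Ezh2 cells. Gli1 was called higher beside it in both at day 11 and in Brd8 cells at day 9, but not at day 7. At day 11 it measured 446, 417 and 424 CPM in Eed and 463, 453 and 452 CPM in Brd8 libraries, against 553, 578 and 589.6 CPM in NT. Neither group overlapped with NT, and the falls were 1.34-fold in Eed (adjusted p = 6.21e-05) and 1.26-fold in Brd8 cells (adjusted p = 0.00159). At day 7 it fell 1.33-fold in Eed, with 521, 521 and 538 CPM, and 1.36-fold in Brd8 cells, with 468, 470.2 and 610.3 CPM, against 683, 725 and 698 CPM in NT (adjusted p = 0.00035 and 0.000489). Ezh2 libraries measured 599, 575 and 612 CPM at day 7 and 529.9, 503 and 512 CPM at day 11, below all NT libraries of the day, and the difference was not called (adjusted p = 0.176 and 0.23). At day 9 Ptch1 fell 1.33-fold in Brd8 cells (adjusted p = 0.00083) and was not called in Eed cells, where 455 to 581 CPM overlapped with 552 to 588 CPM in NT.

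Set against each other within a library, the pair gave 6.31 to 6.63 Ptch1 reads per Gli1 read in Eed, 10.6 to 11.9 in Ezh2, 7.07 to 9.76 in Brd8 and 18.5 to 30.8 in Nr6a1 libraries at day 11, and 22.5 to 48.4 in NT libraries. At day 7 the ratio was 2.72 to 2.90 in Eed, 3.09 to 3.90 in Ezh2, 3.06 to 3.71 in Brd8 and 5.00 to 6.17 in Nr6a1, and 3.74 to 4.32 in NT. The ratio does not depend on library scaling. In each genotype every library of day 11 had a higher ratio than every library of day 7, and at day 11 the Eed, Ezh2 and Brd8 libraries all lay below the lowest NT library.

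**Figure D3:**
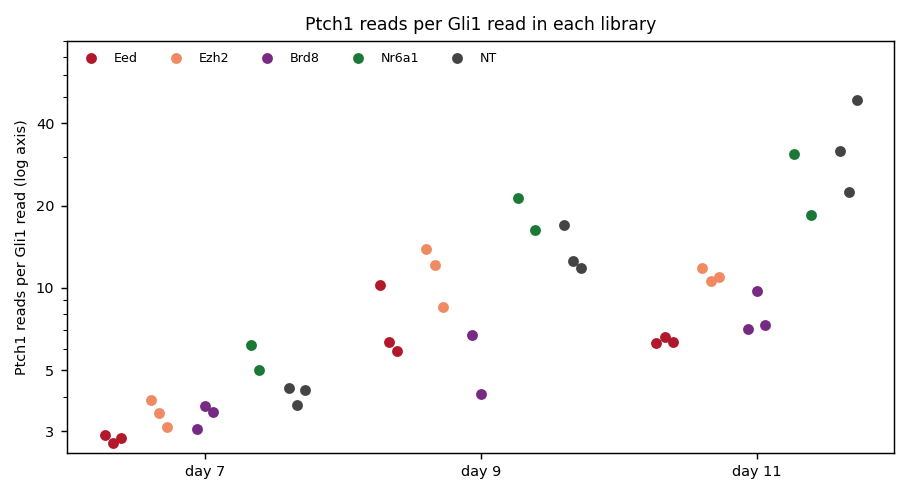
Ptch1 reads per Gli1 read in each library on a log axis, by day and, from left to right within a day, Eed, Ezh2, Brd8, Nr6a1 and NT cells. NT libraries reach 22.5 to 48.4 at day 11, while Eed libraries lie at 6.31 to 6.63.

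Hhip, the antagonist that sequesters ligand (chromosome 8, 79965851 to 80058006, minus strand), was not called at days 7 and 9 and was higher at day 11. It measured 50.6, 46.1 and 52.1 CPM in Eed, 49.3, 44.9 and 46.2 CPM in Ezh2 and 71.9, 48.5 and 45.9 CPM in Brd8 libraries of day 11, against 40.2, 33.4 and 27.7 CPM in NT. Every one of these 9 libraries lay above the highest NT library, and Brd8 replicate 1 stood well above the rest. The rises were 1.46-fold in Eed (adjusted p = 0.0057), 1.38-fold in Ezh2 (adjusted p = 0.0452) and 1.64-fold in Brd8 cells (adjusted p = 0.000604). The Ezh2 call had an adjusted p of 0.016 to 0.275 over its alternatives and ended without any 1 of the Ezh2 libraries or without NT replicate 2 or 3. Without NT replicate 3 the Eed call ended as well. In the fit without both libraries of low agreement the log2 rise of Hhip was 0.39 in Eed (adjusted p = 0.142), 0.34 in Ezh2 (adjusted p = 0.264) and 0.59 in Brd8 cells (adjusted p = 0.012).

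Boc, a co-receptor (chromosome 16, 44485049 to 44558897, minus strand), was called higher in 7 of the 12 comparisons with NT. It measured 84.4, 108 and 94.8 CPM in Eed and 85.2, 102 and 75.2 CPM in Brd8 libraries of day 7, against 40.9, 39.9 and 26.1 CPM in NT. All of them lay above the NT libraries, with rises of 2.67-fold in Eed (adjusted p = 2.35e-05) and 2.44-fold in Brd8 cells (adjusted p = 0.000211). At day 11 the libraries gave 75.8, 89.1 and 71.6 CPM in Eed, 56.9, 55.0 and 65.0 CPM in Ezh2 and 91.5, 68.7 and 79.8 CPM in Brd8 cells, against 31.1, 28.0 and 35.3 CPM in NT. No library overlapped with NT, and the rises were 2.51-fold in Eed, 1.88-fold in Ezh2 and 2.54-fold in Brd8 cells (adjusted p = 7.2e-06, 0.00347 and 8.59e-06). At day 9 Boc rose 2.27-fold in Eed and 3.20-fold in Brd8 cells (adjusted p = 0.000727 and 2.87e-06). In Ezh2 cells edgeR did not call Boc at days 7 and 9, although all Ezh2 libraries lay above all NT libraries of the day. They ran from 48.7 to 83.2 CPM at day 7 and from 35.1 to 42.9 CPM at day 9, where NT reached 32.9 CPM. DESeq2 called Boc in Ezh2 cells at day 7 (log2 0.85, adjusted p = 0.0176). In NT cells its level did not pass a change between any of the days, with means of 35.6 ± 8.27, 26.7 ± 5.88 and 31.5 ± 3.67 CPM at days 7, 9 and 11 (SD, n = 3 each).

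Cdon, the related co-receptor (chromosome 9, 35421128 to 35507652, plus strand), was called against NT in 1 of 12 comparisons. At day 7 it measured 45.5, 62.4 and 47.2 CPM in Eed libraries, against 34.5, 37.4 and 30.5 CPM in NT. The groups did not overlap and the rise was 1.51-fold (log2 0.60 ± 0.14 SE, adjusted p = 0.00479), a call lost without Eed replicate 2, the highest library. At day 11 Cdon stood at 45.0 ± 4.56 CPM in Eed, 41 ± 4.12 in Ezh2 and 35.3 ± 4.80 in Brd8 cells, against 40.6 ± 5.41 CPM in NT cells (SD, n = 3 each), and all 3 groups overlapped with NT. In NT cells its rise from 31.6 CPM at day 9 was not called. DESeq2 called that rise (log2 0.39, adjusted p = 0.038), as did edgeR without the 2 libraries of low agreement (0.46, adjusted p = 0.0259). It was also called without NT replicate 3 of day 11, with DESeq2 size factors and with the replicate number as a block.

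Smo, the transducer on which SAG acts (chromosome 6, 29735503 to 29761365, plus strand), had group means of 147 to 271 CPM over all 15 groups. At day 11 it averaged 174 ± 7.69 CPM in Eed, 155 ± 12.4 in Ezh2, 151 ± 9.46 in Brd8 and 147 ± 3.95 in Nr6a1 cells (n = 2), against 169 ± 11.4 CPM in NT cells (SD, n = 3 where not given). The 95% interval of its log2 difference from NT at day 11 was -0.13 to 0.20 in Eed, -0.30 to 0.03 in Ezh2, -0.33 to 0.00 in Brd8 and -0.39 to -0.02 in Nr6a1 cells. All 4 intervals thus lay within 0.39 log2 units of NT, and that of Nr6a1 left out 0. Nr6a1 libraries lay below all NT libraries at each day. They ran from 207 to 216 CPM at day 7, 155.1 to 161.1 at day 9 and 144.6 to 150.2 at day 11. NT libraries began at 234, 161.5 and 161.5 CPM in that order. Each difference had an unadjusted p under 0.05 and was not called.

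Arhgap36 (chromosome X, 49463945 to 49500244, plus strand) was lower in 3 comparisons with NT. At day 7 it measured 55.4, 57.9 and 89.8 CPM in Eed libraries, against 134, 136 and 155 CPM in NT, a 2.10-fold fall with no overlap (adjusted p = 0.0054). At day 9 the 2 Brd8 libraries gave 162 and 71.4 CPM, against 216, 198 and 270.0 CPM in NT, a 1.97-fold fall (adjusted p = 0.0146) that was lost without Brd8 replicate 2, the lower one (log2 -0.50, adjusted p = 0.419), or without NT replicate 3. In Nr6a1 cells Arhgap36 was the 1 member called at day 11 (0.0789% of tested genes were called in either direction), with 11.3 and 35.4 CPM against 75.7, 58.4 and 83 CPM in NT. That fall was 3.08-fold (log2 -1.62 ± 0.30 SE, adjusted p = 0.0137), the largest fall of any member against NT, and its log2 value ran from -2.68 to -1.03 over the alternatives. Without Nr6a1 replicate 1, without NT replicate 3, without the 2 libraries of low agreement or with only the groups compared in the fit it was not called (adjusted p up to 0.755). The summed level of 9 neuron markers was 2138 to 2606 CPM in Eed libraries of day 7, against 3462 to 3619 CPM in NT. Of the 9 markers 8 were called lower (5.76% of tested genes). Brd8 libraries of day 9 had 3281 to 3920 CPM, against 4854 to 5581 CPM in NT, with 7 of 9 called lower (7.81% of tested genes). In Nr6a1 cells at day 11 0 of 9 were called (4721 to 5096 CPM, against 4699 to 5098 CPM in NT). No neuron marker was at 0 in any group, and the part of these markers in the falls of Arhgap36 was not tested.

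Nr6a1 cells otherwise gave no called member. At day 7 0 of the 9 were called by edgeR and 0 by DESeq2 (0.145% of tested genes; Smo alone at an unadjusted p under 0.05), and the same held at day 9 (0.151% of tested genes; Smo again, 0 by DESeq2). At day 7 Gli1 measured 112 and 148 CPM, against 158, 194 and 165 CPM in NT. Both Nr6a1 libraries lay below the 3 NT libraries, and the log2 difference of -0.40 ± 0.22 SE had an adjusted p of 0.722. At day 11 5 members had an unadjusted p under 0.05, and DESeq2 called 1. Beside Arhgap36 these were Gli2, Boc and Cdon, which were higher, and Smo, which was lower. Boc ran from 38.6 to 49.6 CPM and Cdon from 47.3 to 56.3 CPM, against 28.0 to 35.3 and 34.7 to 45.4 CPM in NT. Gli2 was called without NT replicate 2 (log2 0.90, adjusted p = 0.0226). Gli1 at day 11 measured 17.1 and 29.2 CPM, which overlapped with 17.4, 25.7 and 12.2 CPM in NT. With 2 libraries per day, the 95% interval of the log2 difference of Gli1 was -0.83 to 0.03 at day 7 and -0.14 to 0.81 at day 11.

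Eed and Ezh2 encode subunits of 1 complex, and their guides were compared directly. At day 7 1 member was called (0.151% of tested genes; 6 members had an unadjusted p under 0.05), Cdon, with 45.5, 62.4 and 47.2 CPM in Eed and 30.4, 34.9 and 32.3 CPM in Ezh2 libraries (log2 0.67 ± 0.14 SE, adjusted p = 0.0361). That call ended without Eed replicate 2 or without Ezh2 replicate 1 or 3 (adjusted p up to 0.402), and DESeq2 gave Cdon and Hhip no adjusted p and called 0 of the other 7 members. At day 9 0 were called by edgeR and 0 by DESeq2, which gave Cdon no adjusted p (0% of tested genes; 5 at an unadjusted p under 0.05). At day 11 1 was called (2.88% of tested genes), Ptch1, with 446, 417 and 424 CPM in Eed and 529.9, 503 and 512 CPM in Ezh2 libraries (log2 -0.26 ± 0.08, adjusted p = 0.0493). These groups did not overlap, yet the call ended in 10 of its 13 alternatives, among them those without any 1 of the 6 libraries (adjusted p up to 0.178). The Gli genes did not pass at day 11: Gli1 (log2 0.53, 95% interval 0.14 to 0.92, adjusted p = 0.148), Gli2 (0.32, -0.03 to 0.67, adjusted p = 0.395) and Gli3 (0.65, 0.23 to 1.07, adjusted p = 0.0915). These intervals are not adjusted for the number of genes tested. For each of them all 3 Eed libraries lay above all 3 Ezh2 libraries. How often that holds over all tested genes was not counted, so it adds nothing to the tests.

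The counts for 7 lists of other pathway genes at day 11 stand beside the share of all tested genes called. That share was 13.3% up and 10.6% down in Eed, 5.22% up and 2.7% down in Ezh2, and 10.3% up and 7.48% down in Brd8 cells. Of 8 genes of ligands and ligand release (Shh, Ihh, Dhh, Hhat, Disp1 and Scube1 to Scube3), 2 rose and 1 fell in Eed cells at day 11, with a median log2 change of 0.73 over the list. Over all tested genes the median at day 11 was 0.02 in Eed, 0.03 in Ezh2 and 0.02 in Brd8 cells. In Ezh2 cells 1 rose and 1 fell, and in Brd8 cells 3 rose and 1 fell. Scube2, which helps to release ligand from the cell surface, averaged 10.7 ± 1.24 CPM in Eed, 8.64 ± 2.19 in Ezh2 and 10.6 ± 2.79 in Brd8 cells at day 11, against 2.66 ± 1.40 CPM in NT cells (SD, n = 3 each), and these were rises (adjusted p = 0.00232, 0.0254 and 0.00352). It had also risen at day 7, 6.50-fold in Eed (31.6 ± 1.88 CPM) and 5.07-fold in Brd8 cells (24.7 ± 10.1 CPM), against 4.81 ± 0.731 CPM in NT cells. Shh, the ligand made by the floor plate, fell 5.50-fold in Eed, 2.75-fold in Ezh2 and 3.23-fold in Brd8 cells at day 11 (3.35 ± 1.24, 6.82 ± 1.97 and 5.74 ± 1.2 CPM, against 18.7 ± 9.27 CPM in NT cells; adjusted p = 7.78e-05, 0.0279 and 0.00501). Without the 2 libraries of low agreement 0 of the 8 were called in Ezh2 and 2 in Brd8 cells. Summed levels of 5 floor plate markers, Shh among them, were 426 to 523 CPM in Eed, 675 to 731 in Ezh2 and 526 to 615 CPM in Brd8 libraries of day 11, against 1147 to 1289 CPM in NT, with none at 0, and their part in the levels of Shh and Ptch1 was not tested.

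Among 8 listed receptors and surface modulators, 7 were in the table. In Eed cells at day 11 Gas1 rose and Mgrn1 and Lrp2 fell (13.3% and 10.6% of tested genes), with a median log2 change of -0.10 over the 7. Gas1 rose and Lrp2 fell in Ezh2 cells too (5.22% and 2.7%), and in Brd8 cells Gas1 rose and Lrp2 and Mgrn1 fell (10.3% and 7.48%). Gas1, a co-receptor that acts with Boc and Cdon, averaged 53.0 ± 3.57 CPM in Eed, 32.9 ± 5.63 in Ezh2 and 45.9 ± 3.35 in Brd8 cells, against 15.3 ± 3.86 CPM in NT cells at day 11 (SD, n = 3 each). Its rises were 3.45-fold in Eed, 2.13-fold in Ezh2 and 2.99-fold in Brd8 cells (adjusted p = 1.72e-06, 0.00439 and 1.82e-05), and it also rose at days 7 and 9 in Eed and Brd8 cells. Lrp2, an endocytic receptor for Shh, averaged 34.4 ± 19.2 CPM in Eed, 31.1 ± 6.09 in Ezh2 and 30.04 ± 13.2 in Brd8 cells against 69.0 ± 16.8 CPM in NT cells, and fell in all 3 (adjusted p = 0.00687, 0.00525 and 0.00155). Without the 2 libraries of low agreement 0 of the 7 were called in Ezh2 cells and 1 in Eed cells.

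Of 19 tested intracellular transducers, 1 was higher and 3 were lower in Eed cells at day 11 (13.3% and 10.6% of tested genes). In Brd8 cells the counts were 1 higher and 2 lower (10.3% and 7.48%). In Ezh2 cells edgeR called 0 of them (5.22% and 2.7% of tested genes; 1 at an unadjusted p under 0.05, 1 by DESeq2). Their median log2 changes were -0.05 in Eed, -0.02 in Ezh2 and -0.02 in Brd8 cells. Sufu, the main cytoplasmic restraint on Gli proteins, was not called in any comparison with NT, although it fell 1.69-fold in NT cells between days 7 and 11 (77.4 ± 5.50 CPM at day 11 and 130 ± 1.35 CPM at day 7, SD, n = 3 each; adjusted p = 1e-08). Of 13 cilium genes 1 was higher and 1 lower in Eed cells at day 11, beside the same shares of all tested genes. In the other groups edgeR called 0 in Ezh2 and 0 in Brd8 cells (0 and 1 at an unadjusted p under 0.05, 0 and 0 by DESeq2). Among 8 tested genes of protein kinase A and its inhibitors, the enzyme that Arhgap36 restrains, 1 fell in Eed cells at day 11 (10.6% of tested genes fell): Pkia, an inhibitor peptide gene, at 131 ± 12.8 CPM against 194 ± 14.6 CPM in NT cells (adjusted p = 0.00211). In Brd8 cells 1 rose (10.3% of tested genes), Prkaca, a catalytic subunit gene also counted among the transducers, at 206 ± 16.1 CPM against 177 ± 0.438 CPM in NT cells (adjusted p = 0.0311). In Ezh2 cells edgeR called 0 (0 at an unadjusted p under 0.05, 0 by DESeq2). Without the 2 libraries of low agreement 1 transducer, 1 cilium gene and 0 genes of the protein kinase A list were called in Eed cells at day 11. The same counts were 1, 0 and 0 in Ezh2 and 3, 1 and 0 in Brd8 cells.

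Of 9 listed genes that the signal raises in the neural tube, 2 were called higher and 2 lower in Eed cells at day 11 (13.3% and 10.6% of tested genes). The counts were 2 higher and 2 lower in Ezh2 (5.22% and 2.7%) and 2 higher and 3 lower in Brd8 cells (10.3% and 7.48%). Their median log2 changes were -0.39 in Eed, -0.08 in Ezh2 and -0.65 in Brd8 cells. The genes that rose were Ccnd1 and Mycn, which drive proliferation. Mycn averaged 104 ± 9.24 CPM in Eed, 75.2 ± 6.07 in Ezh2 and 90.6 ± 4.38 in Brd8 cells, against 52.1 ± 3.29 CPM in NT cells (SD, n = 3 each; adjusted p = 5.03e-08, 0.00273 and 3.99e-06). Nkx2-2, a factor of the most ventral progenitors, averaged 25.5 ± 3.01 CPM in Eed, 34.9 ± 2.52 in Ezh2 and 21.3 ± 1.90 in Brd8 cells, against 71.6 ± 5.36 CPM in NT cells, and fell in all 3 (adjusted p = 6.07e-06, 0.00226 and 7.51e-07). Olig2 fell with it in all 3, and Foxa2 in Brd8 cells (0.918 ± 0.797 CPM against 4.47 ± 1.2 CPM in NT cells, adjusted p = 0.015). Of 11 progenitor factors that the signal holds down, 9 rose in Eed (13.3% of tested genes), 7 in Ezh2 (5.22%) and 8 in Brd8 cells (10.3%) at day 11, with Pax6, Pax3 and Dbx1 among the risers in each. By edgeR 0 fell (0 lower at an unadjusted p under 0.05 in each), and without the 2 libraries of low agreement 5 were called in Brd8 cells. Their median log2 changes were 2.97, 2.86 and 3.07. In Nr6a1 cells edgeR called 0 of the 72 tested genes of these 7 lists at days 7, 9 and 11 (12, 3 and 7 at an unadjusted p under 0.05, and 0, 0 and 1 by DESeq2).

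**Figure D4:**
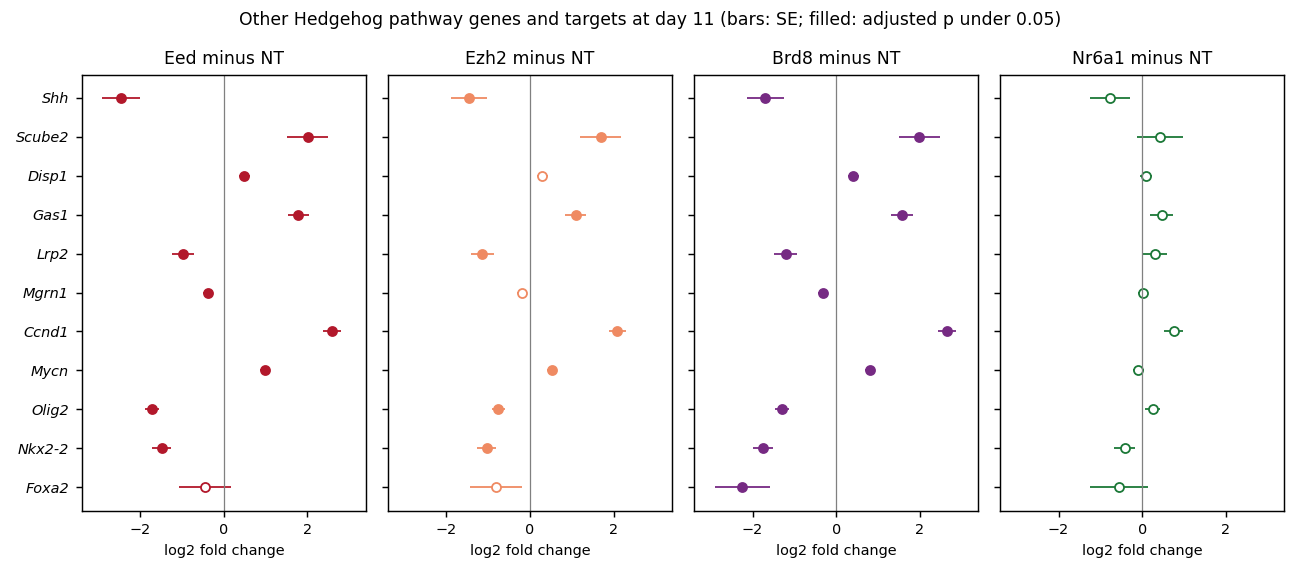
Log2 fold change against NT at day 11 of 11 other pathway genes and targets, with 1 panel for each of Eed, Ezh2, Brd8 and Nr6a1; bars are SE, and filled points passed an adjusted p of 0.05. Scube2, Gas1, Ccnd1 and Mycn lie to the right of 0 and Shh, Lrp2, Olig2 and Nkx2-2 to the left in the Eed, Ezh2 and Brd8 panels.

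Markers of some other cell types differed between these groups as well. Summed levels of 6 neural crest markers were 306 to 338 CPM in Eed, 167 to 303 in Ezh2 and 342 to 453 CPM in Brd8 libraries at day 11, against 156 to 186 CPM in NT. At day 7 they were 138 to 190 CPM in Eed, 69.4 to 125 in Ezh2 and 82.3 to 207 CPM in Brd8 libraries, against 25.6 to 37.6 CPM in NT. Of these 6, 4 were called higher in Eed, 3 in Ezh2 and 3 in Brd8 cells at day 11 (13.3%, 5.22% and 10.3% of tested genes). Those called lower were 1, 1 and 0 (10.6%, 2.7% and 7.48%). Summed epithelial markers (7 genes) were 172 to 330 CPM in Eed libraries of day 11, against 14.8 to 23.7 CPM in NT, where Krt4 was at 0. Ezh2 libraries, at 12.8 to 45.1 CPM, and Brd8 libraries, at 7.56 to 34.7 CPM with Krt4 at 0, overlapped with NT. Sums of 7 astroglial markers (426 to 502 CPM in NT) and 7 mesenchymal markers (380 to 543 CPM in NT) overlapped with NT in all of Eed, Ezh2 and Brd8 cells at day 11. Of the astroglial markers Gfap and S100b were at 0 in Eed cells. The 6 muscle markers summed to 59.1 to 81.0 CPM in Eed, 30.2 to 39.3 in Ezh2 and 94.9 to 141 CPM in Brd8 libraries at day 11, against 0 to 7.33 CPM in NT, where Myod1 was at 0. Summed oligodendrocyte lineage markers (8 genes) were 272 to 308 CPM in Eed, 281 to 449 in Ezh2 and 339 to 453 CPM in Brd8 libraries of day 11, against 436 to 571 CPM in NT. Of these 8, 5 were called lower in Eed, 2 in Ezh2 and 5 in Brd8 cells (10.6%, 2.7% and 7.48% of tested genes), and none was at 0. The 9 neural progenitor markers summed to 2783 to 2926 CPM in Eed, 3007 to 3174 in Ezh2 and 2968 to 3017 CPM in Brd8 libraries, against 3360 to 3471 CPM in NT. Of these, 3 were called higher in each (13.3%, 5.22% and 10.3% of tested genes in that order). In turn 3 were called lower in Eed, 3 in Ezh2 and 4 in Brd8 cells (10.6%, 2.7% and 7.48%). The part of these markers in the levels of the members was not tested.

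Per kilobase of merged exons, a scale that allows for gene length, Ptch1, Smo and Arhgap36 were the 3 highest members in NT cells at every day. Merged exons hold those of every annotated transcript, 14185 bases for Ptch1 and 3421 for Arhgap36. Which transcripts were expressed was not measured, so the ranks between genes are approximate. At day 7 Ptch1 averaged 49.5 ± 1.48, Smo 43.2 ± 1.36 and Arhgap36 41.5 ± 3.37 CPM per kilobase (SD, n = 3), and the ranges of Smo and Arhgap36 overlapped. At day 9 Arhgap36 was first with 66.7 ± 10.9 CPM per kilobase, above the ranges of the other members. In NT cells Gli1 was at rank 8 of the 9 at day 11, with 3.69 ± 1.36 CPM per kilobase, and at rank 4 at day 7, with 34.4 ± 3.79. Its range at day 11 overlapped with those of Gli2, Gli3, Hhip and Cdon. In Eed and Brd8 cells at day 11 it was at rank 5, with 13.4 ± 0.778 and 11.6 ± 2.03 CPM per kilobase (SD, n = 3 each).

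Across the 15 group means of log2 CPM, Gli2 and Gli3 correlated at 0.96, Gli1 and Gli2 at 0.94 and Gli3 and Boc at 0.86, while Ptch1 and Boc correlated at -0.72 and Cdon and Arhgap36 at -0.75. These values are descriptions over groups that share 3 days and 5 genotypes. By the same measure over 14258 genes, Gli1 was most like Eme1, Pask, Atad2, Crabp1 and Mki67 (0.983 to 0.985). Boc was most like Prdm13, Fgf15, Tfap2b, Zic1 and Scube2 (0.926 to 0.947). Arhgap36 was most like Slit2, Slc18a3, Slc10a4, Nrg1 and Cadm1 (0.967 to 0.983), of which Slc18a3 encodes the vesicular acetylcholine transporter of cholinergic neurons. Ptch1 was closest to Son, Dst, Ogfr, Syt14 and Vps13c (0.914 to 0.941), and Hhip to Scarna13, Socs3, Sst, Cyr61 and Cebpa (0.883 to 0.919).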

How the data were processed

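RNA sequencing libraries of R1-iCas9 cells were analysed from the estimated counts per gene that the authors deposited as raw counts, with no normalization per the file headers. The values are estimates: 2.95% of them (29525) have a fraction, and all were rounded. The labels call the molecule genomic DNA, while their protocols describe total RNA and directional, ribodepleted libraries. Per the submitters' processing notes mm10 was the build and DESeq2, with no version given, was among the tools, while aligner, counter and annotation are not given there.

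Sample titles gave the genotype and day of each library. In edgeR 4.0.16 (R 4.3.3) 15204 genes passed filterByExpr by group and 9206 did not. After TMM scaling 1 quasi-likelihood fit with 15 group means took in all 41 libraries (prior degrees of freedom 11.5, common biological coefficient of variation 0.182). Tests were two-sided with Benjamini-Hochberg adjustment within each of 22 comparisons. 95% intervals are 1.96 SE. The model was also run on simulated counts for Eed and Nr6a1 against NT at day 11, as a check of the code. The outcome is not given here and no result rests on it. Alternatives were DESeq2 1.42.0 (Wald test), its size factors in edgeR, no filter, a block for the replicate number, fits of just the compared groups, each library left out in turn, leaving out libraries with a correlation under 0.95, and leaving out Rn45s.

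A listed gene is not reported here. The members, the gene lists, the marker lists and the alternatives were chosen with earlier results of these data known. All 9 members were given in every comparison. Of each list, up to 4 called genes with the smallest adjusted p could be named, not all are given, and Sufu was named after its values were seen. The genes most like a member were the 5 with the highest Pearson correlation over 15 group means (log2 CPM, prior count 2). Positions and merged exon lengths came from GENCODE M21 on GRCm38, and promoter windows from RefSeq on GRCm38.p6. Figures were drawn with matplotlib 3.10.9 in Python 3.11.15.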

Additional observations from a re-analysis of the deposited data

Results flagged for a closer look

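The following differences between days were flagged because the fold change of cells with targeting guides against NT was itself tested to differ between day 11 and day 7. Gli1 was flagged in Eed (log2 difference 1.73), Ezh2 (1.33) and Brd8 cells (1.83), being called higher than NT at day 11 and not called at day 7. Gli2 was flagged in Eed (0.98) and Brd8 cells (1.01), and Gli3 (1.08) and Hhip (0.93) in Brd8 cells. All 7 share the NT libraries of days 7 and 11, and Gli1 and Gli2 were lowest in NT replicate 3 of day 11 (12.2 and 16.9 CPM).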

How the results depend on the processing

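Of 198 pairs of member and comparison 61 were called, and 46 of them kept their call in every alternative run, with 0 reversed. The other 137 were not called, of which 39 passed in at least 1 alternative. Most of these 39 passed in the fit without the low-count filter. Without the low-count filter, more members were called, among others, in Ezh2 against NT at day 7 (3, not 0) and day 9 (2, not 0), Nr6a1 at day 11 (2, not 1), NT at day 11 against day 9 (4, not 2), Eed against Ezh2 at days 7, 9 and 11 (4, 5 and 4, not 1, 0 and 1), and the differences between days 11 and 7 in Eed, Ezh2 and Nr6a1 cells (5, 3 and 5, not 2, 1 and 0). Smaller shifts of a count, in this setting and in those that follow, are not listed. DESeq2 called 2 members in Ezh2 at day 7, 1 in the Nr6a1 difference between days and 0 in Eed against Ezh2 at day 7, where it gave 2 members no adjusted p. With DESeq2 size factors or without Rn45s, Eed against Ezh2 at day 11 gave 0. With only the groups compared in the fit, 4 were called in Ezh2 at day 7, 5 in Brd8 at day 7 (not 3), 0 in Nr6a1 at day 11, and 2 each in Eed against Ezh2 at days 7 and 11. Without the 2 libraries of low agreement the counts were 0 for Nr6a1 and for Eed against Ezh2 at day 11, and 1, 0 and 2 for the differences between days in Eed, Ezh2 and Brd8 cells (not 2, 1 and 4). In the fit without the low-count filter, Gli3 in Ezh2 cells at day 7 had an adjusted p of 1.2e-11 at a log2 of 0.81. With the filter it was not called. Shares of all genes called under these settings are not given here or below. The counts thus show how calls depend on the processing and are no result about the members. The cause of these shifts was not tested.

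Leaving out 1 library at a time gave 4 to 5, 2 to 5 and 5 to 6 members for Eed at days 7, 9 and 11, 0, 0 and 4 to 5 for Ezh2, 3, 4 to 7 and 6 for Brd8, and 0, 0 and 0 to 2 for Nr6a1. It gave 6 to 7, 2 to 3 and 7 for NT at day 9 against 7, day 11 against 9 and day 11 against 7. The differences between days gave 1 to 2 in Eed, 0 to 2 in Ezh2, 2 to 4 in Brd8 and 0 to 2 in Nr6a1 cells, and Eed against Ezh2 0 to 1, 0 to 3 and 0. Groups left with 1 library borrowed their spread from the remaining groups.

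Replicate numbers did not pair the libraries: of 50 pairs of same-numbered libraries 1 had a correlation of deviations over 0.1 (range -0.031 to 0.104). With the replicate number as a block 3 calls of members changed, which gave 2 members for the Ezh2 difference between days and 1 for that of Nr6a1.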
